A study of Mus musculus with 6 samples.

Results

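The genes described here serve the burning and storage of fatty acids in the mouse oocyte, 30 genes listed by symbol that were all found among the 55487 genes of the deposited table. They cover fatty acid activation (5 genes), the carnitine shuttle (3), mitochondrial beta-oxidation (5), its auxiliary isomerases and reductase (3), electron transfer (3), peroxisomal beta-oxidation (3), triglyceride synthesis (2), the lipid droplet coat (2), lipolysis (3) and Ppara as a regulator. Acyl-CoA dehydrogenases and mitochondrial carriers were not among them. RNA was sequenced from 3 control and 3 metformin libraries of oocytes. Metformin is an antidiabetic biguanide, known to lower respiration at complex I and to activate AMPK, a kinase that senses low energy. Females of both groups were primed with 10 IU of PMSG, and oocytes were collected 46 to 48 h later. These fully grown oocytes were freed of cumulus cells and matured for 16 h in M16 medium without or with the drug. The series title names aged mice; the labels give no age, strain or genotype, and they do not say which of the listed metformin concentrations (10, 20 or 50 μM) was sequenced, or the number of oocytes and animals behind a library.

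As background, a fatty acid taken from a lipid droplet or from the medium is joined to coenzyme A by an acyl-CoA synthetase, carried into the mitochondrion as its carnitine ester, and shortened in repeated rounds of oxidation whose electrons reach the respiratory chain through the electron transfer flavoprotein. Peroxisomes shorten very long and branched chains by a parallel route. Oocytes hold lipid droplets, and in mice blocking the carnitine step is known to impair oocyte maturation. AMPK is known in other tissues to favour entry of fatty acids into mitochondria, by restraining the synthesis of the inhibitor malonyl-CoA.

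The libraries held between 8622281 and 10588292 counted reads. All 12 oocyte markers were above the filter on low counts, with Btg4 the most abundant. Of 15 cumulus and granulosa markers Amh, Foxl2 and Ptx3 had no read in any library, and the list summed to between 59.1 and 61.5 CPM (reads relative to library size, scaled by TMM) in control and between 56.5 and 68.2 CPM in metformin libraries, most of it Cyp19a1. Of 8 adipocyte markers Cfd, Cidec, Lep, Plin1 and Retn had no read, and the summed level of 62.2 to 71.7 CPM in control and 61.7 to 81.7 CPM in metformin libraries was nearly all Pparg. The 6 theca markers summed to between 17.4 and 23.5 CPM, nearly all Scarb1, with Cyp17a1 and Insl3 at 0 reads. The 9 stroma and endothelial markers summed to between 31.5 and 43.4 CPM, led by Pecam1. Control replicate 1 stood apart in 281 haemoglobin reads and 45 reads of Col1a1 and Col1a2, against 0 to 2 and 0 to 4 elsewhere. The blood and immune list, with Adgre1 at 0 reads, therefore summed to 33.4 CPM in that library, and to at most 2.28 CPM in the metformin libraries.

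Levels per length differed between the 30 genes by several orders of magnitude. In deposited FPKM (fragments per kilobase of gene length, scaled to library depth), averaged over 6 libraries, 1 gene was above 100, 2 lay between 10 and 100, 9 between 1 and 10, and 18 below 1. Etfa and Acsl3 alone supplied between 72.5% and 77.1% of the summed FPKM of the 30 genes. In the order of mean FPKM, the 6 values of a gene lay wholly above those of the next gene for 4 of 29 neighbouring pairs, which were Etfa above Acsl3, Acsl3 above Hsd17b4, Hsd17b4 above Echs1, and Ppara above Pnpla2. All other neighbours overlapped.

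**Figure D1:**
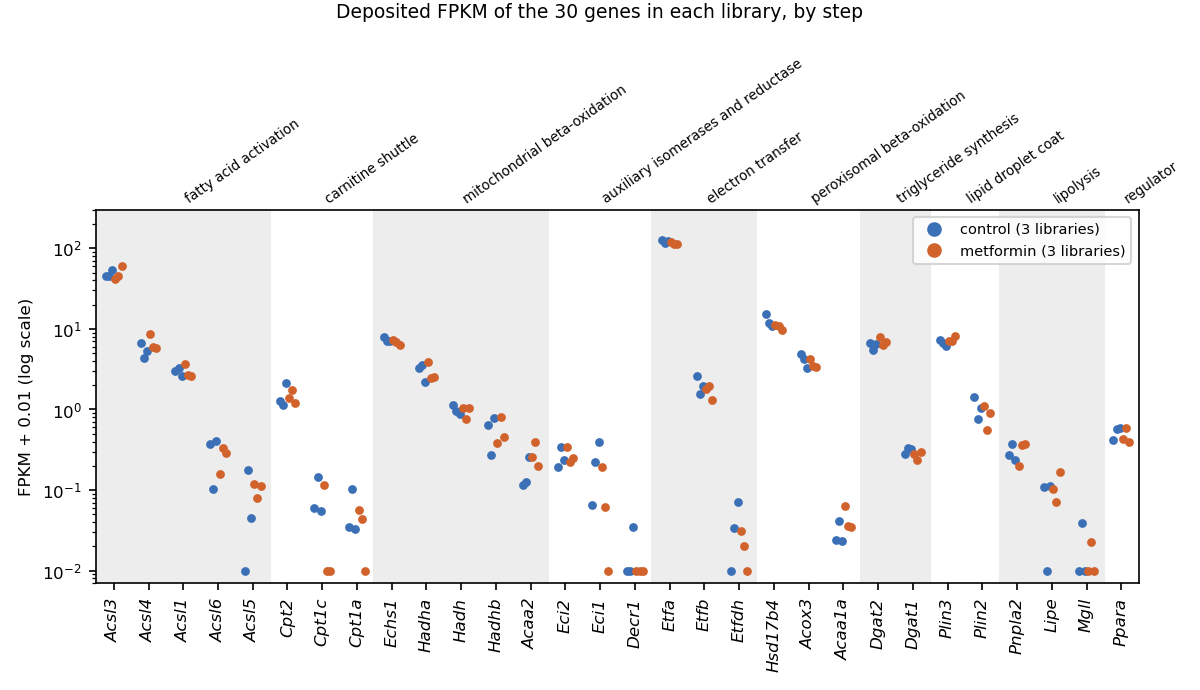
Deposited FPKM plus 0.01 on a log axis for the 30 genes, grouped by step along the horizontal axis, with 1 point for each of 3 control and 3 metformin libraries. Etfa sits between 112.9 and 126.4 FPKM in every library, while Etfdh of the same step is at or below 0.0619.

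The deposited FPKM rest on a gene length that sums the distinct exons of all annotated transcripts. The length implied by count and FPKM came within 1% of that sum for 97.8% of 13153 genes with at least 50 counts, and within 1% of the merged exon length for 21.6%. Genes with many annotated transcripts are therefore given a longer length and a lower FPKM. Among the 30 genes the implied length was between 1.05 times (Plin3) and 7.15 times (Echs1) that of the principal protein-coding transcript, with a median of 2.72. For comparisons between genes, reads per kilobase of the principal transcript scaled to total counts (principal-transcript RPKM, chosen after the data were seen) are given beside the FPKM. On that scale Echs1 moved from 7.10 to 50.7 and stood at rank 3, with all 6 values above those of Hsd17b4, and Acox3 moved from 3.89 to 14.2. Ppara, wholly above Pnpla2 in FPKM, had the lower mean on that scale, at 0.865 against 1.14, with overlapping values. Etfa and Acsl3 remained first and second on both scales, at 187.7 and 80.2 by principal transcript, where together they made up between 61.4% and 67.4% of the sum. Which transcripts the oocytes held was not examined.

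**Figure D2:**
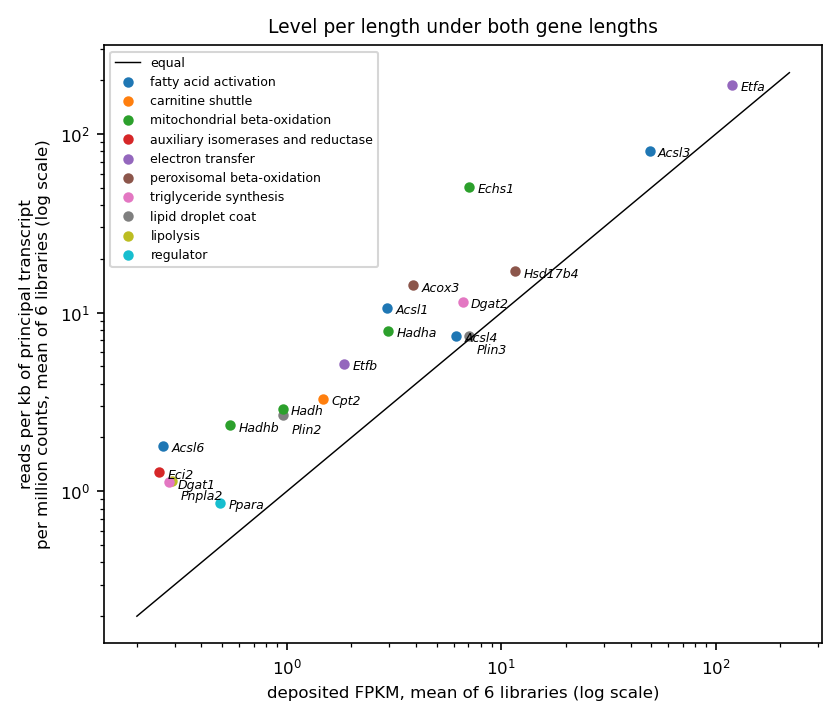
Mean level of the 20 genes tested, with deposited FPKM on the horizontal and principal-transcript RPKM on the vertical axis, both on log scales, coloured by step; the line marks equal values. Echs1, at 7.10 FPKM and 50.7 by principal transcript, lies farthest above the line, and Plin3, at 7.05 and 7.43, lies closest to it.

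None of the 30 genes passed the test of metformin against control. Of the 30 genes 20 passed the filter on low counts and were tested with edgeR's quasi-likelihood test across 12793 genes, and 0 passed an adjusted p of 0.05 in either direction, where 0.0391% of all genes tested did, 0.0235% higher and 0.0156% lower. At an unadjusted p under 0.05 there were also 0, by edgeR and by DESeq2, where edgeR gave 1.5% of all genes. Among the 20, 7 were fitted higher and 13 lower. Their log2 fold changes ran from -0.33 to 0.33 with a median of -0.05; over all genes tested the median was 0.01 and 47.5% were fitted lower. The groups did not overlap for 2 genes, Echs1 and Hsd17b4, both lower in the metformin libraries, where 2.79% of all genes tested lay that way and 5.63% either way. A change of 2-fold in either direction was outside the 95% interval for 18 of the 20, and inside it for Acsl6 and Plin2; the same interval was that narrow for 76.0% of all genes tested. The other 10 genes had too few reads to be tested. In these bulk libraries fewer cells of a type and less RNA per cell cannot be told apart.

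**Figure D3:**
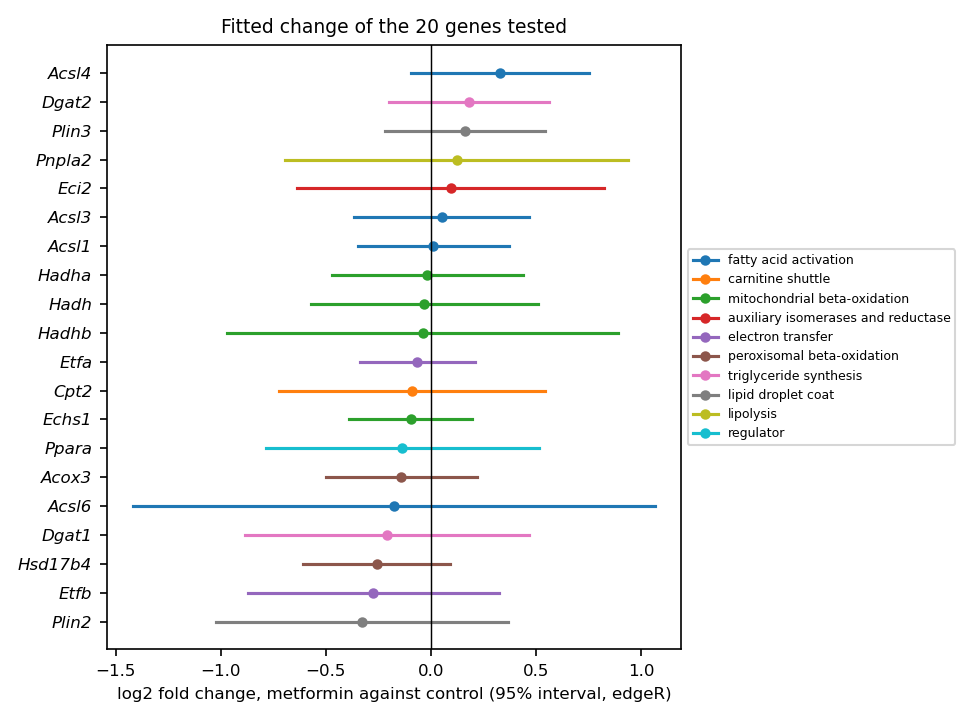
Fitted log2 fold change of metformin against control on the horizontal axis for the 20 genes tested, with 95% intervals from edgeR, sorted by size and coloured by step. All 20 intervals include 0, from Acsl4 at 0.33 to Plin2 at -0.33.

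The summed level of the 30 genes overlapped between the groups. They took 0.101%, 0.0939% and 0.0985% of the counts of control replicates 1 to 3 and 0.0970%, 0.0911% and 0.09999% of metformin replicates 1 to 3. Summed FPKM stood at 227.7 ± 9.66 in control and 221.1 ± 7.96 in metformin libraries (SD, n = 3; two-sided exact permutation p = 0.4). Of 11 such sums, for 10 steps and all genes together, none separated the groups. The smallest exact p was 0.2, for electron transfer and for peroxisomal beta-oxidation (0.8 after adjustment over the 11), in a design of 3 against 3 libraries that cannot go below 0.1. A sum follows its most abundant gene. That of electron transfer was nearly all Etfa, at a mean of 119 FPKM over all libraries against 1.85 for Etfb.

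Among the transcripts of fatty acid activation most were those of Acsl3, a long-chain acyl-CoA synthetase of the endoplasmic reticulum and lipid droplets (ENSMUSG00000032883, chromosome 1, 78657825 to 78707743, plus strand; GENCODE M21 on GRCm38, here and below). Acsl3 stood at 45.8, 45.9 and 54.1 FPKM in control and 42.1, 45.5 and 60.9 FPKM in metformin libraries. Replicate 3 was the highest in both groups, and the groups overlapped (log2 fold change 0.05, SE 0.190). It supplied 83.7% ± 3.77 (SD over 6 libraries) of the FPKM of the 5 synthetase genes, and 79.8% ± 3.83 by principal transcript. Of its principal transcript 5.22% also lies in an exon of Utp14b on the same strand, which held 40 to 81 reads.

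Acsl4, a synthetase that prefers arachidonic acid, stood at 6.61, 4.40 and 5.33 FPKM in control and 8.62, 6.00 and 5.86 FPKM in metformin libraries. It had the smallest p of the 20 genes, with a log2 fold change of 0.33 (SE 0.194, 95% interval -0.10 to 0.75, unadjusted p = 0.117, adjusted p = 1.00, edgeR). In TMM-scaled CPM control replicate 1 lay above metformin replicates 2 and 3, and the log2 fold change was 0.18 without control replicate 2 or without metformin replicate 1. Acsl1, the synthetase best known from liver, fat and heart, stood at 2.94 ± 0.348 and 2.94 ± 0.594 FPKM (SD, n = 3) and had a log2 fold change of 0.01 (SE 0.165). The order of this pair depended on the gene length: Acsl4 was higher in mean FPKM, at 6.13 against 2.94, and Acsl1 by principal transcript, at 10.7 against 7.42.

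Acsl6, a synthetase known from brain, was the most uneven of the genes tested. It had 59, 14 and 69 reads in control and 26, 57 and 51 reads in metformin libraries, so that control replicate 2 was lowest and control replicate 3 highest. Its 95% interval was the widest of the 20, from -1.42 to 1.07. Acsl5, a synthetase of intestine and liver, had 0 to 8 reads per library and was not tested. Its last exons overlap those of Zdhhc6 on the opposite strand over 9.52% of the principal transcript. Zdhhc6 held 141 to 213 reads per library, and the libraries keep no strand, so reads of the overlap cannot be told apart.

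Most reads of the carnitine shuttle came from its inner-membrane enzyme. Cpt2, which turns acylcarnitine back into acyl-CoA inside the mitochondrion, stood at 1.26, 1.14 and 2.15 FPKM in control and 1.39, 1.73 and 1.18 FPKM in metformin libraries. Control replicate 3 was the highest and the groups overlapped (log2 fold change -0.09, SE 0.289). Cpt1a, the outer-membrane enzyme that malonyl-CoA inhibits and the usual rate-setting step of the pathway, had 2, 7 and 2 reads in control and 4, 3 and 0 in metformin libraries.

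Cpt1c, the brain form of the enzyme, had 4, 10 and 4 reads in control and 9, 0 and 0 in metformin libraries. Neither Cpt1 gene was tested, and 4 libraries for Cpt1a and 2 for Cpt1c were at or under the floor of 3 counts. Cpt1b, the muscle form, is not among the 30 genes and had 0 reads in all 6 libraries. Over all libraries Cpt2 had 461 reads against 18 for Cpt1a, a ratio per principal-transcript length of 46.6 (exact 95% interval 29.2 to 79.4). Against the 27 reads of Cpt1c the ratio was 20.1 (13.6 to 30.8). These intervals cover counting error only.

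Within the mitochondrial spiral, Echs1, the short-chain enoyl-CoA hydratase of the second reaction, was the most abundant. It stood at 7.85, 7.14 and 7.10 FPKM in control and 7.34, 6.94 and 6.22 FPKM in metformin libraries, which overlap on this scale, whose totals are not TMM-scaled. In TMM-scaled CPM it stood at 85.0, 77.2 and 82.4 in control and 76.8, 77.0 and 74.8 in metformin libraries, which do not overlap, though control replicate 2 and metformin replicate 2 nearly meet. Its log2 fold change was -0.10 (SE 0.134, 95% interval -0.39 to 0.20).

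Hadh, the short-chain 3-hydroxyacyl-CoA dehydrogenase of the third reaction, stood at 0.972 ± 0.130 and 0.939 ± 0.153 FPKM (SD, n = 3), with a log2 fold change of -0.03 (SE 0.246). Acaa2, the mitochondrial thiolase of the last reaction (chromosome 18), had 2 to 8 reads per library and was not tested.

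Hadha and Hadhb encode the alpha and beta subunits of the trifunctional protein, which carries out the last 3 reactions on long chains, and lie head to head on chromosome 5 with 85 bases between them. Hadha (30118304 to 30155162, minus strand) stood at 3.26, 3.52 and 2.20 FPKM in control and 3.84, 2.45 and 2.51 FPKM in metformin libraries. Replicate 1 was the highest of the metformin group and replicate 2 of the control group, and the log2 fold change was -0.02 (SE 0.208). Hadhb (30155248 to 30184593, plus strand) had 51, 20 and 68 reads in control and 33, 71 and 41 in metformin libraries. These 6 values spread by over 3-fold within the control group, and the log2 fold change was -0.04 (SE 0.417, 95% interval -0.97 to 0.89).

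The Hadhb count is uncertain because a processed pseudogene, Gm13910 (chromosome 2, 108948806 to 108950233, plus strand), matches its principal transcript over 1428 bases at 99.79% identity, the coding sequence from base 120 on. The pair differs there at 3 bases, G320A, A512G and G862A, counted from 1 at the start of the 2048-base Hadhb transcript, with the Hadhb base first. They are shown with 15 bases on each side, the differing base in capitals, since only reads that cover one of them, or that reach past the match, can tell the genes apart. The sequences are the transcript strand from GENCODE M21, 5′ to 3′.
Hadhb at base 320: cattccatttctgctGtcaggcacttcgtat
Gm13910 at the same place: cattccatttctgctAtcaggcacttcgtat
Hadhb at base 512: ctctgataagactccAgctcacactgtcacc
Gm13910 at the same place: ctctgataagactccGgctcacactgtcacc
Hadhb at base 862: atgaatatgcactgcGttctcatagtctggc
Gm13910 at the same place: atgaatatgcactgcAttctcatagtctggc

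More reads were assigned to the pseudogene than to the gene in every library. Gm13910 held 168, 101 and 168 reads in control and 154, 138 and 133 in metformin libraries. A further processed pseudogene on chromosome 15, Gm9108, matches over 1426 bases at 97.6% identity and held 15 to 17 reads. Hadhb itself received between 14.7% and 31.7% of the reads of the 3 genes. Summed over the 3 genes, the control libraries averaged 21.98 ± 5.78 CPM and the metformin libraries 20.2 ± 1.54 CPM (SD, n = 3), with a log2 fold change of -0.13 (SE 0.215, 95% interval -0.60 to 0.34).

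In most libraries, though not in all, the division of these reads decides which subunit looks more abundant. With the reads assigned to Hadhb alone, Hadha was higher by principal transcript in every library, between 1.78 and 8.29 times. With the reads of all 3 genes counted to Hadhb, the ratio of Hadha to Hadhb ranged from 0.483 to 1.22 and averaged 0.800 ± 0.273 (SD over 6 libraries). Hadha still stood higher in control replicate 2, at 1.22, and in metformin replicate 1, at 1.025. How the authors' counting treated reads that match several genes is not given in the sources used here.

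**Figure D4:**
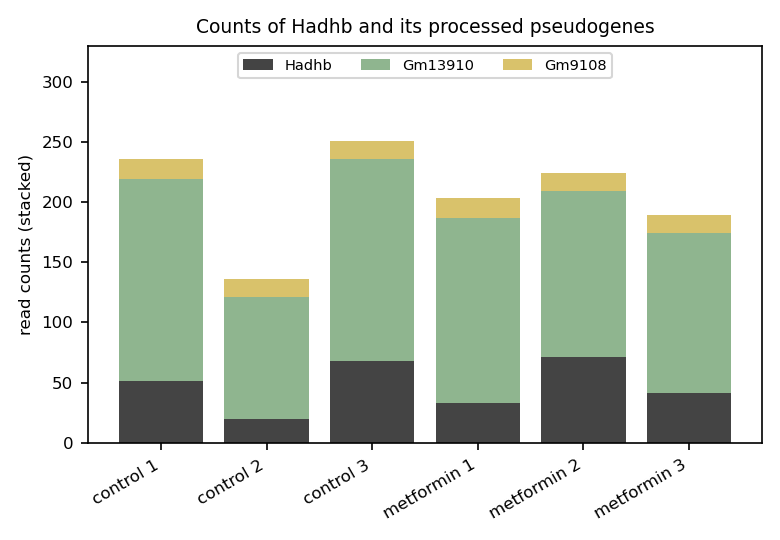
Stacked read counts of Hadhb and its processed pseudogenes Gm13910 and Gm9108 in each of the 6 libraries. The Hadhb part is between 20 and 71 reads, and the Gm13910 part, between 101 and 168 reads, is the largest in every library.

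Of the auxiliary enzymes that move or remove double bonds of unsaturated fatty acids, Decr1 and Eci1 had too few reads to test. Decr1, the mitochondrial 2,4-dienoyl-CoA reductase, had 1 read in control replicate 3 and 0 in the other 5 libraries, where a count of 0 allows up to 3 counts or at most 0.338 CPM. Eci1, the mitochondrial enoyl-CoA isomerase, had 2, 7 and 15 reads in control and 7, 2 and 0 in metformin libraries, and was not tested. Eci2, an isomerase of peroxisomes and mitochondria, was the only one tested, with 15 to 29 reads per library, at 0.246 ± 0.0754 and 0.261 ± 0.0638 FPKM (SD, n = 3), with a log2 fold change of 0.09 (SE 0.333).

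The 3 genes of electron transfer stood at ranks 1, 11 and 28 of the 30 by FPKM. Etfa encodes the alpha subunit of the electron transfer flavoprotein, which takes electrons from the acyl-CoA dehydrogenases (ENSMUSG00000032314, chromosome 9, 55454508 to 55512243, minus strand). It stood at 126.4, 117.5 and 122.6 FPKM in control and 120.1, 112.9 and 114.3 FPKM in metformin libraries, above 97.0% of the genes tested. In FPKM, though not in TMM-scaled CPM, it varied least of the 30 genes, with a coefficient of variation of 4.29% over 6 libraries. Metformin replicate 1 lay within the control range in FPKM. In TMM-scaled CPM metformin replicate 3 alone did, at 271.2 against 250.8 to 280.6 in control libraries. The log2 fold change was -0.06 (SE 0.125, 95% interval -0.34 to 0.21).

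Etfb, the beta subunit that forms a heterodimer with Etfa (chromosome 7, 43444083 to 43457800, plus strand), stood at 2.62, 1.53 and 1.93 FPKM in control and 1.77, 1.92 and 1.32 FPKM in metformin libraries. Control replicate 1 was the highest, and the log2 fold change was -0.27 (SE 0.273, 95% interval -0.87 to 0.32). Without control replicate 1, the library with the haemoglobin reads, it was -0.07, and without control replicate 2 it was -0.45. The FPKM of Etfa was between 48.3 and 86.7 times that of Etfb, and by principal transcript between 27.1 and 48.7 times. The Etfb level is uncertain, because 69.1% of its principal transcript also lies in exons of Gm45233, an overlapping gene on the same strand with 0, 1, 0, 0, 1 and 11 reads in control replicates 1 to 3 and metformin replicates 1 to 3.

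Etfdh, the membrane enzyme that passes these electrons to ubiquinone (chromosome 3, 79603788 to 79629500, minus strand), had 0, 2 and 6 reads in control and 2, 1 and 0 in metformin libraries. Over all libraries Etfa had 15320 reads and Etfdh 11, a ratio per principal-transcript length of 2378 (exact 95% interval 1329 to 4765, counting error only). Of the 11 reads 6 were in control replicate 3, and without that library the ratio was 4302 (1843 to 13252). Etfa also has short matches to the processed pseudogenes Gm15285 and Gm15289, which held 16 to 37 and 3 to 10 reads, and its log2 fold change was -0.06 with these reads added.

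The start regions of these 3 partner genes are shown, and whether they bear on the differences in level was not tested. The RefSeq start of Etfdh lies inside the GENCODE gene. Each sequence is the 250 bases before the RefSeq start on GRCm38.p6, 5′ to 3′ on the gene's strand, with CpG dinucleotides in capitals.
Etfa, chr9:55512244-55512493, minus strand: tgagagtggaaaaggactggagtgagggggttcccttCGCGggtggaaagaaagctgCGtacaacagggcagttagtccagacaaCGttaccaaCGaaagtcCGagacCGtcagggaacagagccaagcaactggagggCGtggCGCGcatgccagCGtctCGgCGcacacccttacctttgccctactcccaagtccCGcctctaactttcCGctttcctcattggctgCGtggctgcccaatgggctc
Etfb, chr7:43443822-43444071, plus strand: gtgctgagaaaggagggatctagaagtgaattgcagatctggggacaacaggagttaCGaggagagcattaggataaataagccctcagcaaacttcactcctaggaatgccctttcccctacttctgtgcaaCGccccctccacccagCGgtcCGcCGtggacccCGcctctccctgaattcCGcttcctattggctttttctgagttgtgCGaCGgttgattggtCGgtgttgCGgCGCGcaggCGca
Etfdh, chr3:79628768-79629017, minus strand: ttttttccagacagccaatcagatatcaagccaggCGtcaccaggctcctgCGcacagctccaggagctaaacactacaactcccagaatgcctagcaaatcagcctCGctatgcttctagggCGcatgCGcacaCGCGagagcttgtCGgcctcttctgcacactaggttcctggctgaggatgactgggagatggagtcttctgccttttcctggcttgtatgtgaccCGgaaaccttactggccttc

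These windows held 16 CpG in Etfa, 14 in Etfb and 9 in Etfdh. RefSeq start regions of 300 bases were found for 25 of the 30 genes, 30 regions in all. These longer regions also take in bases after the start, and had a median of 17.5 CpG against 7 over all 32851 regions. In them Etfa had 21 CpG, Etfb 16 and Etfdh 17, so the order of Etfb and Etfdh depended on the window. The letters TATAAA, on either strand, were in 0 of the 30 regions and in 13.6% of all regions. CCAAT, on either strand, was in 15 of the 30 and in 37.4% of all. These are matches of letters in a window and say nothing of whether a factor binds.

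Of the listed genes of peroxisomal beta-oxidation, Hsd17b4 and Acox3 were expressed and the thiolase gene Acaa1a was near the floor. No other peroxisomal thiolase gene was listed for this step, so Acaa1a alone does not give the level of thiolase transcripts. Hsd17b4, the D-bifunctional protein that carries the middle reactions of the peroxisomal spiral (chromosome 18), stood at 15.3, 11.9 and 11 FPKM in control and 11.1, 10.8 and 9.71 FPKM in metformin libraries. In TMM-scaled CPM it stood at 58.3, 45.3 and 44.9 in control and 40.9, 42.2 and 41.1 in metformin libraries, which do not overlap, while the FPKM do. Its log2 fold change was -0.26 (SE 0.160, 95% interval -0.61 to 0.09, unadjusted p = 0.134, adjusted p = 1.00, edgeR). The highest value was that of control replicate 1, the library with the haemoglobin reads, and without it the log2 fold change was -0.13; the part of those reads in the result was not tested.

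Acox3, a peroxisomal acyl-CoA oxidase of branched chains, stood at 4.83, 4.22 and 3.26 FPKM in control and 4.26, 3.43 and 3.37 FPKM in metformin libraries. The metformin values lay within the control range, and the log2 fold change was -0.14 (SE 0.164). Acaa1a, a peroxisomal thiolase, had 1 to 4 reads per library, and its near copy Acaa1b, which matches it over 1428 bases at 96.6% identity, had 0 to 11.

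In both pairs of storage enzymes and coat proteins, 1 gene held most of the transcripts. Dgat2, which adds the last acyl chain of a triglyceride beside lipid droplets, stood at 6.58, 5.50 and 6.52 FPKM in control and 7.89, 6.26 and 6.83 FPKM in metformin libraries. Metformin replicate 1 was the highest and control replicate 2 the lowest, with a log2 fold change of 0.18 (SE 0.173, 95% interval -0.20 to 0.56). Dgat1, an unrelated enzyme of the same reaction, stood at 0.274, 0.326 and 0.318 FPKM in control and 0.270, 0.224 and 0.291 FPKM in metformin libraries (log2 fold change -0.21, SE 0.309).

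The ratio of Dgat2 to Dgat1 within a library was 24.1, 16.9 and 20.5 in control and 29.2, 28.0 and 23.5 in metformin libraries. Only control replicate 1 lay above the lowest metformin value (two-sided exact permutation p = 0.2, 0.6 after adjustment over 6 such ratios and shares). By principal transcript Dgat2 was between 7.39 and 12.8 times Dgat1.

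Plin3, a coat protein that moves between the cytosol and droplets, stood at 7.29, 6.64 and 6.20 FPKM in control and 6.98, 7.03 and 8.16 FPKM in metformin libraries. Metformin replicate 3 was the highest, and the log2 fold change was 0.16 (SE 0.174, 95% interval -0.22 to 0.54). Plin2, a coat protein that is stable only on droplets, stood at 1.42, 0.753 and 1.04 FPKM in control and 1.10, 0.544 and 0.901 FPKM in metformin libraries. Replicate 2 was the lowest in both groups, and the log2 fold change was -0.33 (SE 0.317, 95% interval -1.02 to 0.37). It was -0.10 without control replicate 1 and -0.09 without metformin replicate 2, and reached -0.54 without control replicate 2.

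The ratio of Plin3 to Plin2 was 5.14, 8.82 and 5.98 in control and 6.36, 12.9 and 9.05 in metformin libraries, and the groups overlapped (two-sided exact permutation p = 0.2, 0.6 after adjustment). By principal transcript it lay between 1.95 and 4.91, so that the margin of Plin3 over Plin2 depended on the gene length used while its direction did not. Plin1 and Plin5, coat proteins of fat cells and of oxidative tissue that are not among the 30 genes, had 0 reads in all 6 libraries.

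**Figure D5:**
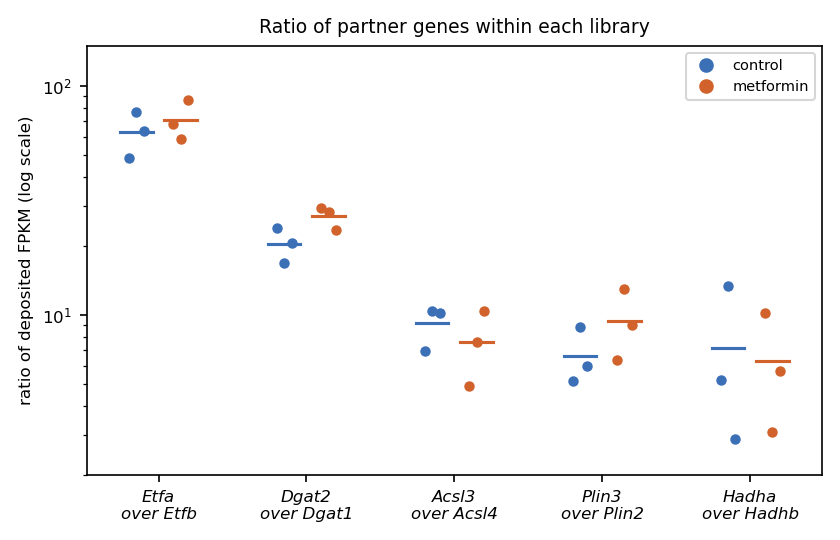
Ratio of deposited FPKM between partner genes within each library on a log axis, with 3 control and 3 metformin libraries as points and group means as lines. Etfa over Etfb is the highest at 48.3 to 86.7, and the groups overlap in all 5 pairs. By principal transcript Etfa over Etfb is 27.1 to 48.7, and the Etfb level is uncertain because Gm45233 overlaps it on the same strand. Hadha over Hadhb is plotted from the reads assigned to Hadhb alone; by principal transcript with the pseudogene reads added it is 0.483 to 1.22.

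The lipases that empty droplets were at low levels. Pnpla2, the lipase that starts triglyceride breakdown, had 17, 22 and 16 reads in control and 13, 25 and 27 in metformin libraries, and a log2 fold change of 0.12 (SE 0.373). Lipe, the hormone-sensitive lipase that acts on diglycerides, had 9, 0 and 10 reads in control and 9, 6 and 16 in metformin libraries; 23.8% of its principal transcript overlaps an antisense gene that held 9 to 16 reads, and reads of the pair cannot be told apart without strand. Mgll, which splits monoglycerides, had 2 reads in control replicate 2, 1 in metformin replicate 2 and 0 elsewhere. Ppara, the nuclear receptor that drives many genes of fatty acid oxidation in liver, stood at 0.409, 0.556 and 0.572 FPKM in control and 0.417, 0.584 and 0.390 FPKM in metformin libraries. Its values overlapped, with a log2 fold change of -0.14 (SE 0.297).

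Genes that work beside the 30 were read from 3 lists of 106 genes, of which 56 were tested and 0 passed in either direction by edgeR or DESeq2. By edgeR 1 had an unadjusted p under 0.05. The fit put 33 higher and 23 lower (median 0.05 on the log2 scale), where 47.5% of all genes tested were fitted lower (median 0.01). The groups did not overlap for 5 genes, all higher, where 2.84% of all genes tested lay that way. Gpat3, a glycerol-3-phosphate acyltransferase of the first step of triglyceride synthesis, had 83, 75 and 80 reads in control and 116, 144 and 97 in metformin libraries (log2 fold change 0.46, SE 0.210, unadjusted p = 0.0491, adjusted p = 1.00, edgeR). Pnpla8, a mitochondrial and peroxisomal phospholipase, had a log2 fold change of 0.31 (SE 0.189).

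In the list of other oxidation genes, 8 of 22 tested were fitted higher and 14 lower. The thioesterase gene Acot4 had 3 to 25 reads per library (log2 fold change 0.97, SE 0.688, adjusted p = 1.00, edgeR). In the list of uptake and regulation, 12 of 14 were fitted higher and 2 lower, with Slc27a2, a very long chain acyl-CoA synthetase, at a control mean of 20.8 ± 3.49 CPM and a metformin mean of 29 ± 9.78 CPM, and the receptor gene Ppard at a control mean of 2.51 ± 0.881 CPM and a metformin mean of 3.82 ± 0.569 CPM (SD, n = 3; edgeR adjusted p = 1.00 for both). In the list of other droplet genes, 13 of 20 were fitted higher and 7 lower. Over all genes tested 47.5% were fitted lower, and the signs within a list were not tested.

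The acyl-CoA dehydrogenases, which feed Etfa and Etfb, were uneven as well. Acadm, of medium chains, had a control mean of 138.7 ± 24.4 CPM and a metformin mean of 133.8 ± 28.0 CPM (SD, n = 3), while Acadvl, of very long chains, had 4 to 8 reads per library. Acadsb, of branched short chains, was the only gene of this enzyme family past the threshold among those named here, with a control mean of 53.6 ± 2.38 CPM and a metformin mean of 19.5 ± 2.53 CPM (SD, n = 3; log2 fold change -1.46, SE 0.165, adjusted p = 0.00568, edgeR). It hands its electrons to the same flavoprotein, whose genes Etfa and Etfb had log2 fold changes of -0.06 and -0.27 that did not pass.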

How the data were processed

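Per the labels' protocols, the SMART-Seq HT kit made the libraries; it primes on poly(A) tails and keeps neither strand nor molecular identifiers, so tail length can alter capture. CASAVA 1.8, TopHat2 2.0.6 and mm10 are named in the submitters' processing notes; the sources used here do not name the counting program. The authors deposited raw read counts and FPKM for each gene, per the file headers. Counts were used as deposited. FPKM, which are not TMM-scaled, served to describe levels and for the exact permutation tests of summed levels and of ratios. Single genes were tested on counts. Symbols were found in GENCODE M21 for 55141 of 55487 genes. Columns were matched by initial and number of the sample title. The labels do not name separate animals or cultures, so p-values measure only sample-to-sample spread, perhaps technical.

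Counts were fitted in R 4.3.3 with edgeR 4.0.16 (quasi-likelihood, robust) on group alone, after TMM scaling and a filterByExpr minimum of 10 counts, with Benjamini-Hochberg adjustment over 12793 genes at 0.05. DESeq2 1.42.0 was an alternative. SE is the log2 fold change divided by the square root of F, and 95% intervals use the fit's degrees of freedom. CPM are on total counts times the TMM factor; a floor of 3 counts equals 0.285 to 0.338 CPM. The fit was tested on simulated counts. The principal transcript is the APPRIS-ranked protein-coding transcript, the longest on ties. Overlaps were read from exons, and copies from blastn matches. All 30 members are named, with the 2 smallest p of each other list (1 gene so chosen is not reported here), markers at 0 and the most abundant marker of each list, and Acadsb; Cpt1b, Plin1, Plin5, Acadm, Acadvl, Acaa1b and the pseudogenes were chosen after their values were seen. Members and lists were chosen with earlier results of these data known.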

Additional observations from a re-analysis of the deposited data

How the results depend on the processing

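Of the 30 genes, 0 passed under each of 13 other settings and with the counts of near-identical copies summed (chosen after seeing the data), and the same held for the 106 other pathway genes. Not all 30 were tested each time: 10 were with a filter at a mean of 10 CPM, 30 with no filter, and 20 or 21 otherwise. The count over all genes was 5, and 9 by DESeq2; leaving out 1 library gave 5 to 12. The replicate numbers were not treated as pairs in the main fit, since the labels state no pairing. Deviations of same-numbered libraries correlated at 0.144, 0.0441 and 0.200, and each library correlated best with its own number. Whether the numbers mark a shared batch was not tested. With the replicate number as a block, 7 genes passed over all genes and 0 of the 30. The smallest unadjusted p among the members tested was then 0.0535, against 0.117 in the main fit (edgeR). The median log2 fold change of the genes tested ranged from -0.10 to -0.01, against -0.05. Signs changed under at least 1 alternative for Acsl1, Acsl3, Acsl6, Cpt2, Hadh, Hadha, Hadhb, Eci2 and Pnpla2, and kept in all alternatives run for the other 11 tested. With no filter all 30 were tested and 0 passed. The 10 genes left out of the main test had too few reads for it at this depth.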
